A study of Arabidopsis thaliana with 13 samples.

Results

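Transcript levels of Arabidopsis thaliana Col-0 seedlings were compared between 120 min and 15 min of exposure to the cytokinin 6-benzyl adenine (BA), to see what differs later in the treatment. The comparison takes the arrays titled Col-0 BA 120 (2 arrays) and Col-0 BA 15 (2 arrays), which are 4 of the 13 Affymetrix arrays of the study, and all 22746 probe sets that are not controls. Col-0 is the wild-type laboratory strain. The seedlings of both groups had grown for 6 days in liquid MS medium, and their BA was dissolved in diluted KOH. The dose is not given in the labels. Other arrays serve as reference values: Col-0 given only the solvent for 2 h (2 arrays), and seedlings of the 35S::CKX1 line, in which the 35S promoter drives a cytokinin oxidase, with solvent for 2 h (3 arrays) or BA for 15 min (4 arrays). The 2 h of solvent are as long as the later BA treatment, and no solvent array of 15 min is used here. For array 1 of the 120 min group the labels conflict: a solvent control is named in the source field, and 120 min of BA in both other fields, which were followed.

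Cytokinins are perceived by histidine kinase receptors, which pass a phosphate through phosphotransfer proteins to response regulators in the nucleus. Type-B regulators are transcription factors, and among their early targets are the type-A regulators, which dampen the signal. In seedlings the hormone is known for slowing root growth, for promoting chloroplast development and for inducing enzymes that conjugate or degrade cytokinins, so that a longer exposure adds later and indirect responses to the early ones.

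The number of arrays, 2 in each compared group, limits the precision of every value. The labels do not say whether the replicates were separate cultures, so the p-values measure a spread that may be technical. That spread is pooled over all 13 arrays in their 5 groups, and where 1 of the 4 compared arrays is left out, the lone array of its group is assumed to vary like the others. Col-0 15 min array 2 stood apart from its replicate. Its log2 signals, taken over all tested probe sets, which do not replicate each other, correlated at 0.945 and 0.939 with those of the 120 min arrays and at 0.877 with those of 15 min array 1. The latter correlated at 0.971 and 0.963 with the solvent arrays. The control probe set for 25S ribosomal RNA read 46.2 and 18.1 units with solvent, 16.1 and 92.5 units at 15 min, and 695.9 and 548.2 units at 120 min. In CKX1 it read 2.4 to 260.3 units with solvent and 11.1 to 803.7 units after 15 min of BA, where array 3 was the highest of all 13. The geometric mean signal of the spiked control transcripts was 231.9 to 487.0 units in 5 of the Col-0 arrays. It was 964.0 units in 120 min array 2 and 3362.0 units in CKX1 15 min array 3. The part of these array differences in the results was not tested. For many of the leading genes the value without 15 min array 2 is also given.

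Late in the treatment 3 of the 15922 probe sets tested passed the threshold of an adjusted p under 0.05 (limma with Benjamini-Hochberg adjustment), which is 0.0188% of those tested. Those that rose were the unnamed probe set 258487_at and that of AT5G10040, a gene of the core low-oxygen response, and the dehydrin LTI30 fell. At an unadjusted p under 0.05, 306 probe sets were higher at 120 min (1.92%) and 545 were lower (3.42%), which is 851 in all, near the 796.1 that a share of 5% of the tested probe sets makes. Both 120 min arrays lay above both 15 min arrays in 17.8% of probe sets and below them in 23.7%. The median log2 difference over all probe sets was −0.065, or 0.0795 with each array centred on its median, so the sign of small differences rests on the scaling. The count of 3 became 5 without 15 min array 1, 1 without 15 min array 2, and 0 without 120 min array 1 or without 120 min array 2, where 588 and 372 probe sets, fewer than those 796.1, had an unadjusted limma p under 0.05. In a fit of the 4 compared arrays alone 0 passed, with a lowest limma adjusted p of 0.108 and 1232 probe sets at an unadjusted p under 0.05. The 3 CKX1 pairs of solvent and BA arrays with the same number deviated together from their group means (correlations 0.63, 0.58 and 0.73 across probe sets), and with those numbers as a block, chosen after seeing the data, 46 probe sets were called, 21 higher and 25 lower, the 3 included. A fit without 15 min array 2 and both CKX1 arrays numbered 3 was chosen after seeing the data because those arrays were also high in 25S signal. It left 1 array at 15 min, and the 120 min arrays were then the only ones of high 25S signal. In that fit the treatment time and the 25S signal cannot be told apart, so its count is not given.

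LTI30 encodes a dehydrin, a hydrophilic protein of the late embryogenesis abundant class that accumulates in cold, drought and abscisic acid treatment. Its normalized signal was 244.0 and 309.8 units in the solvent arrays, 317.1 and 325.9 units at 15 min, and 55.7 and 50.1 units at 120 min. All 4 arrays of solvent and 15 min lay far above both 120 min arrays, and 15 min array 2 read as high as its replicate. The means were 321.5 ± 6.22 units (SD, n = 2) at 15 min and 52.9 ± 3.96 units (n = 2) at 120 min. The gene fell by 2.53 on the log2 scale (SE 0.305, limma adjusted p = 0.0243). In RNA of whole seedlings fewer cells of a type and less RNA per cell cannot be told apart, and the part of tissue shares in this and later differences was not tested. The 7 CKX1 arrays, at 104.0 to 213.9 units, lay between the Col-0 levels of the 2 times. The difference was −2.46 to −2.60 when any 1 of the 4 arrays was left out, but the adjusted p was then 0.0751 to 0.679.

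AT5G10040 was near the lower end of the scale with solvent and at 15 min, and clearly above it at 120 min. Its signal was 8.5 and 12 units with solvent, 9.7 and 1.1 units at 15 min, and 163.2 and 187.4 units at 120 min. The 120 min arrays did not overlap with any of the 11 other arrays, since the CKX1 arrays read 5.5 to 25.1 units. The gene rose by 4.54 on the log2 scale (SE 0.602, limma adjusted p = 0.0416). The size depends on the pseudocount, being 3.19 with 16 units and 5.21 with 1 unit, where the adjusted p was 0.0694. Without 15 min array 2, its lowest array, the difference was 3.77 with an adjusted p of 0.0949, and over all other settings tried the adjusted p ranged from 0.00235 to 0.900.

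The probe set 258487_at is not listed with a gene in the annotation used. Its signal was 182.8 and 135.4 units with solvent, 136.0 and 81.7 units at 15 min, and 1031.3 and 1203.6 units at 120 min, so that both 120 min arrays were again the highest of all 13. It rose by 3.36 on the log2 scale (SE 0.347, limma adjusted p = 0.00987). The CKX1 arrays lay between the Col-0 levels, at 219.1 to 599.7 units. Without 15 min array 2 the difference was 3.00 with an adjusted p of 0.0543, and the adjusted p was 0.188 without 120 min array 1 and 0.344 without 120 min array 2.

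**Figure D1:**
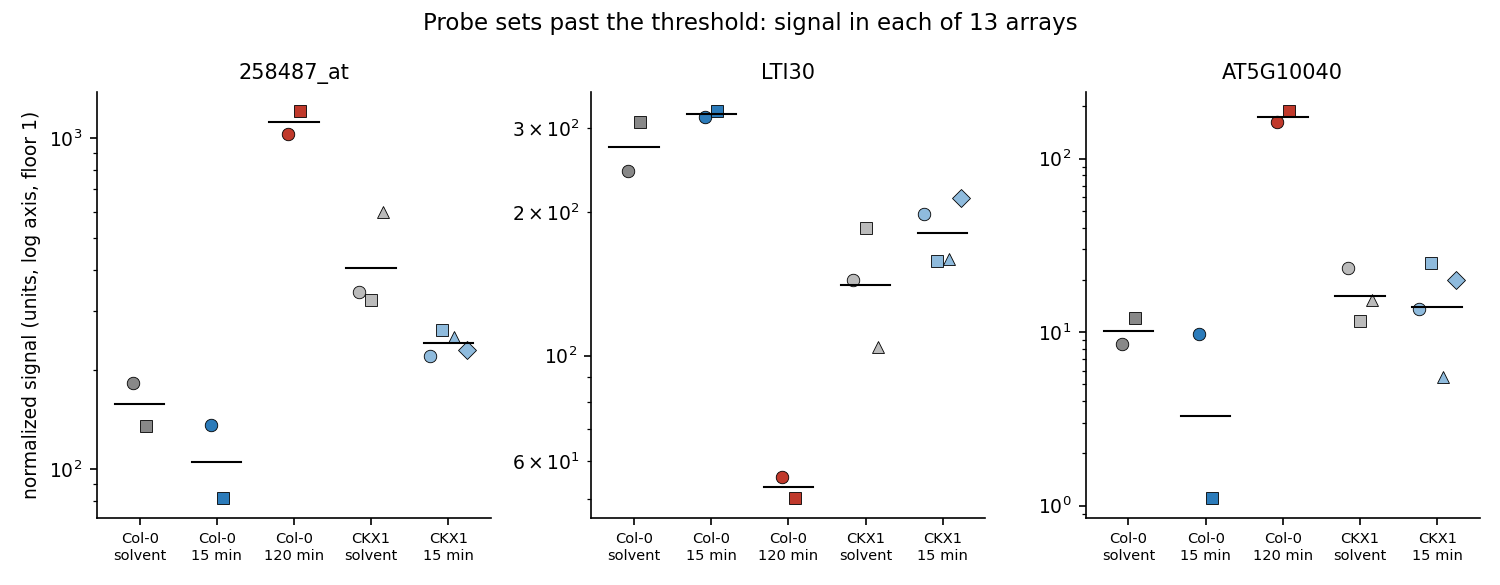
Normalized signal (units, log axis, values under 1 drawn at 1) of the 3 probe sets past the threshold in each of the 13 arrays, by group, with symbols for the replicate numbers and lines at the geometric means. The red 120 min points of 258487_at and AT5G10040 are the highest of all arrays, those of LTI30 are the lowest at 55.7 and 50.1 units, and in no panel does 15 min array 2 (blue square) lie near the 120 min arrays.

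The core low-oxygen response genes were higher at 120 min as a list. Plant cells short of oxygen stabilise ERF transcription factors of group VII, which switch on genes of fermentation, sugar use and feedback control along with many genes of unknown function. Of 49 loci on the list, 27 had a probe set with 1 gene, and 26 of these were tested. The exception, AT5G45960, stood at 1.8 to 4.5 units in the Col-0 arrays and was left out by the filter on low values. Among the 26, 1 gene (AT5G10040) passed the threshold over all probe sets. At an unadjusted p under 0.05, 22 were higher at 120 min and 0 were lower, beside 1.92% and 3.42% of all probe sets tested. Both 120 min arrays lay above both 15 min arrays in 24 members and below in 0, beside 17.8% and 23.7% of all probe sets. The median log2 difference over the 26 was 1.87 (range 0.016 to 4.69), while that over all probe sets was −0.065. The list was chosen with earlier results of these data known.

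Both 120 min arrays stood at the same level on this list. The median member stood at a log2 signal of 6.23 and 6.47 in the solvent arrays, 6.36 and 5.63 at 15 min, and 8.40 and 8.41 at 120 min. In CKX1 it stood at 6.42 to 7.22 with solvent and at 6.14 to 7.11 after 15 min of BA. The 120 min arrays were therefore the highest on the list, and in 16 of the 26 members both lay above each of the 11 other arrays. All 26 members also lay above both solvent arrays at 120 min, with a median log2 difference from solvent of 1.78 at 120 min and −0.30 at 15 min. Over all probe sets tested that median was −0.107 at 120 min and −0.042 at 15 min. The shares of all probe sets that lay above both solvent arrays, or above all 11 other arrays, were not counted. The comparison with solvent shares the 120 min arrays with the one above, and it is given as values only.

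No share of all probe sets was counted for the following orders. Col-0 15 min array 2 was below array 1 in 19 members and above it in 7. It lay below both solvent arrays in 18. Without 15 min array 2 the median log2 difference of the list was 1.89, and without 120 min array 1 it was 1.94. With 15 min array 2 and both CKX1 arrays numbered 3 left out, the median was 1.89.

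The members with a gene symbol were PDC2, HRA1 and CML38. PDC2 encodes a pyruvate decarboxylase, the enzyme of the first step of ethanol fermentation. It had 215.9 and 219.6 units with solvent, 218.9 and 66.3 units at 15 min, and 410.4 and 384.5 units at 120 min, a log2 difference of 1.69 (SE 0.883, limma unadjusted p = 0.0808), or 0.85 without 15 min array 2. The 120 min arrays were the highest of the 6, and 15 min array 2 was the lowest. HRA1, a trihelix transcription factor that restrains the group VII ERF activator RAP2.12, had 29.4 and 13 units with solvent, 32 and 6.1 units at 15 min, and 127.2 and 102.9 units at 120 min. Its groups did not overlap, and the log2 difference was 2.68 (SE 0.672, adjusted p = 0.516), or 1.74 without 15 min array 2. CML38, a calmodulin-like protein induced by low oxygen, had 35.1 and 9.7 units at 15 min against 66.4 and 53.1 units at 120 min, a log2 difference of 1.48 (SE 0.538), or 0.71 without that array.

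Among the members known only by their locus, those that read alike in both 15 min arrays give the clearest values. AT1G33055 had 67.9 and 90.2 units with solvent, 87.7 and 91.3 units at 15 min, and 1090.6 and 1196.8 units at 120 min. The 15 min arrays lay at the level of solvent, and the 120 min arrays stood far above both (log2 difference 3.63, SE 0.626, limma adjusted p = 0.149). Its CKX1 arrays spread from 182.2 to 943.8 units, above all Col-0 arrays of solvent and 15 min. AT4G27450 had 848.1 and 1349.7 units with solvent, 1037.8 and 805.0 units at 15 min, and 2585.3 and 3771.8 units at 120 min, a log2 difference of 1.77 (SE 0.417). AT5G44730 had 44.4 and 33.3 units at 15 min against 108.9 and 120.1 units at 120 min, a log2 difference of 1.49 (SE 0.363).

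In several members 15 min array 2 fell below its replicate. AT2G17850 had 70.6 and 24.2 units at 15 min against 506.3 and 545 units at 120 min, a log2 difference of 3.55 (SE 0.782), and 2.84 without that array. AT4G10270 had 99.3 and 100.3 units with solvent, 89.4 and 10.5 units at 15 min, and 477.6 and 457.6 units at 120 min (3.71, SE 0.826), or 2.34 without it. For both genes the 120 min arrays were also above the solvent arrays, so the direction did not hang on array 2. The same held of AT4G33560, with 48.1 and 1.9 units at 15 min and 396.2 and 448.2 units at 120 min, whose log2 difference of 4.69 (SE 1.30) was 3.04 without array 2. AT5G66985 had 91.4 and 3.6 units at 15 min and 403.2 and 430.7 units at 120 min (4.03, SE 1.19), which was 2.15 without it. AT4G24110 had 52.8 and 0.7 units at 15 min and 150.4 and 171.0 units at 120 min (3.38, SE 0.877), which was 1.54 without it. The size of these last 3 differences thus depends on array 2, and their limma adjusted p-values were 0.592, 0.649 and 0.527.

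In other members array 2 read high instead. AT5G26200 had 10.9 and 65.4 units at 15 min and 201.9 and 252.7 units at 120 min, a log2 difference of 2.87 (SE 0.657), which was 4.00 without array 2. AT1G19530 had 104.5 and 196.5 units with solvent, 165.6 and 337.9 units at 15 min, and 1334.2 and 1214.3 units at 120 min (2.41, SE 0.610). AT1G03610 had 142.9 and 502.3 units at 15 min and 863.3 and 923.7 units at 120 min (1.72, SE 0.653). In these genes array 2 lay between its replicate and the 120 min arrays, and the groups still did not overlap. The member that moved least, AT5G47060, had 129.5 and 73.4 units at 15 min and 113.0 and 86.2 units at 120 min, where the groups overlapped.

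**Figure D2:**
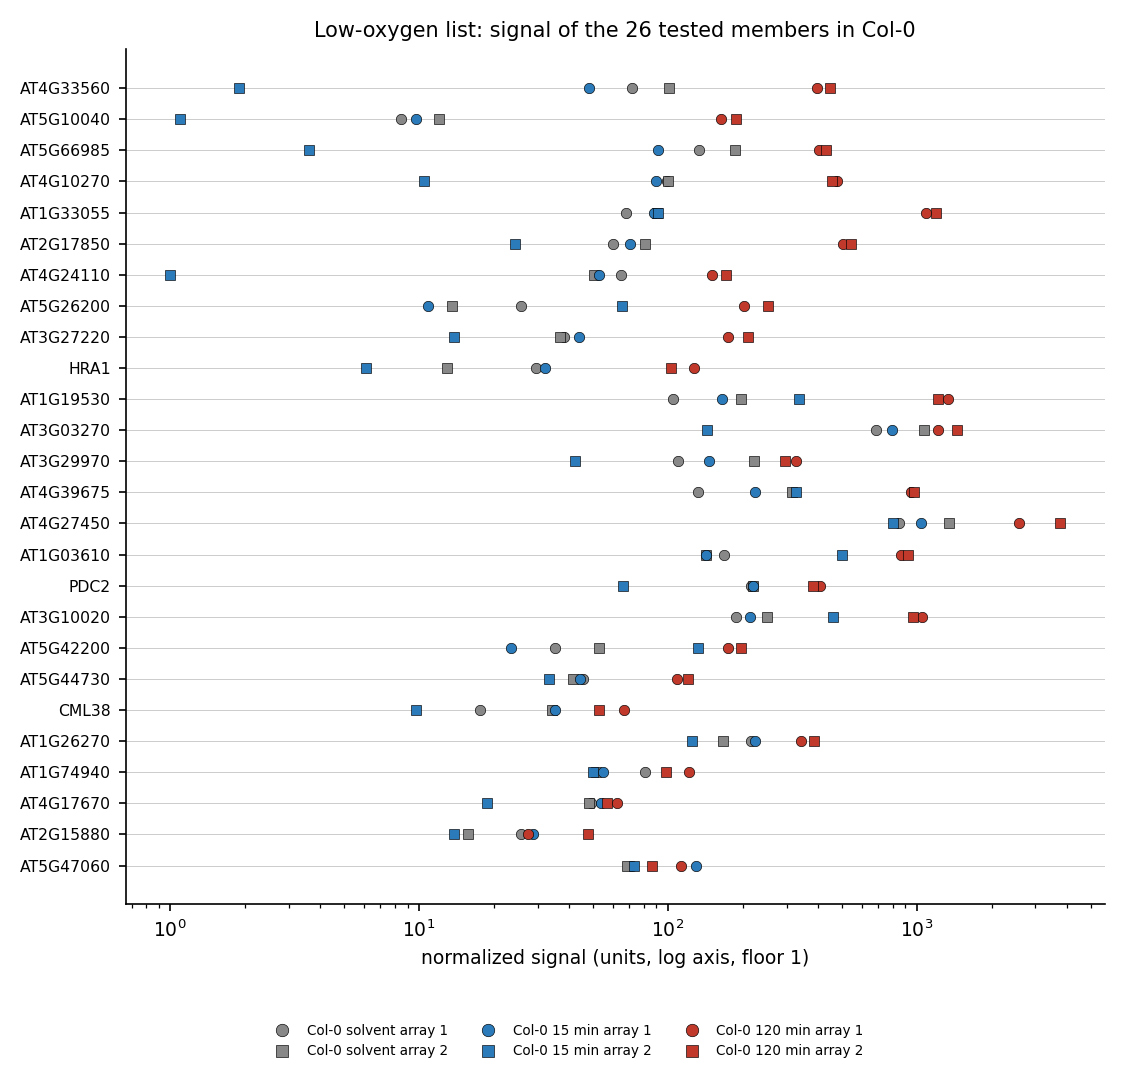
Normalized signal (units, log axis, values under 1 drawn at 1) of the 26 tested members of the low-oxygen list in the 6 Col-0 arrays, ordered by the log2 difference between 120 min and 15 min. The red 120 min symbols lie right of both blue 15 min symbols in 24 rows, and the blue square of 15 min array 2 lies left of its replicate in 19.

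The 12 largest positive differences among named genes required groups that did not overlap, an unadjusted p under 0.01 and at least 50 units. Of these 12, 10 belonged to the low-oxygen list. That list, chosen with earlier results of these data known, held 26 of the 8748 tested probe sets with 1 gene. The 10 were 9 of the genes above together with AT3G27220. AT3G27220 had 44.1 and 13.8 units at 15 min and 174.3 and 210.7 units at 120 min (2.77, SE 0.836), or 2.04 without 15 min array 2. The other 2 were EXPA16 and AT4G11190. EXPA16 encodes an alpha-expansin, a protein that loosens cell walls. It had 25.3 and 16.5 units with solvent, 14.2 and 17.8 units at 15 min, and 164.1 and 205.6 units at 120 min. The 4 arrays of solvent and 15 min agreed closely and both 120 min arrays were far above them (log2 difference 3.28, SE 0.599, limma adjusted p = 0.190). AT4G11190 had 96.8 and 170.7 units with solvent, 134.7 and 3.1 units at 15 min, and 268.6 and 258.0 units at 120 min, and its log2 difference of 3.15 (SE 1.00) was 0.95 without 15 min array 2. Its CKX1 arrays read 1.2 to 5.8 units, as low as that array.

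The 12 largest negative differences among named genes under the same 3 conditions, LTI30 included, ranged from −2.59 to −2.02, and from −3.78 to −2.22 without 15 min array 2. Probe sets outside those conditions reached −3.59. In all 12 the 120 min arrays also lay below both solvent arrays, and in 11 of them 15 min array 2 was below array 1. These 12 were chosen for low values at 120 min, and the shares of all probe sets with these orders were not counted. AT5G15180 had 56.3 and 83.5 units with solvent, 90.7 and 56.1 units at 15 min, and 10.3 and 11.4 units at 120 min. Its solvent and 15 min arrays overlapped and the 120 min arrays stood well below (−2.39, SE 0.444, limma adjusted p = 0.198). AT1G51805 had 80.1 and 95.7 units with solvent, 132.7 and 74.0 units at 15 min, and 27.9 and 14.1 units at 120 min (−2.13, SE 0.382, adjusted p = 0.174). MSRB6, a methionine sulfoxide reductase, which repairs oxidised methionine in proteins, had 321.8 and 421.5 units with solvent, 405.4 and 312.6 units at 15 min, and 101.8 and 70.2 units at 120 min (−2.03, SE 0.517). For these 3 genes the 15 min arrays lay near solvent.

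In other genes of this set 15 min array 2 was already low. AT3G01190 had 550.4 and 442.1 units with solvent, 397.6 and 65.5 units at 15 min, and 31.3 and 22.9 units at 120 min, a log2 difference of −2.46 (SE 0.636) that was −3.73 without array 2. AT5G10130 had 171.4 and 151.1 units with solvent, 182.2 and 32.4 units at 15 min, and 15.0 and 6.6 units at 120 min (−2.59, SE 0.687), or −3.78 without array 2. For both genes array 2 lay between its replicate and the 120 min arrays. AT3G12870 (−2.25), AT3G25930 (−2.02), AT1G05320 (−2.06) and AT5G46230 (−2.25), whose differences without array 2 were −2.99, −3.02, −2.89 and −3.30, had the same order of arrays at 15 min, with array 2 at 25.1, 35.5, 30.1 and 20.1 units against 76.1, 153.0, 102.0 and 98.0 units in array 1. The 2 arrays of 120 min differed for AT1G05320, at 4.0 and 24.1 units, and for AT5G46230, at 14.2 and 2.6 units.

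**Figure D3:**
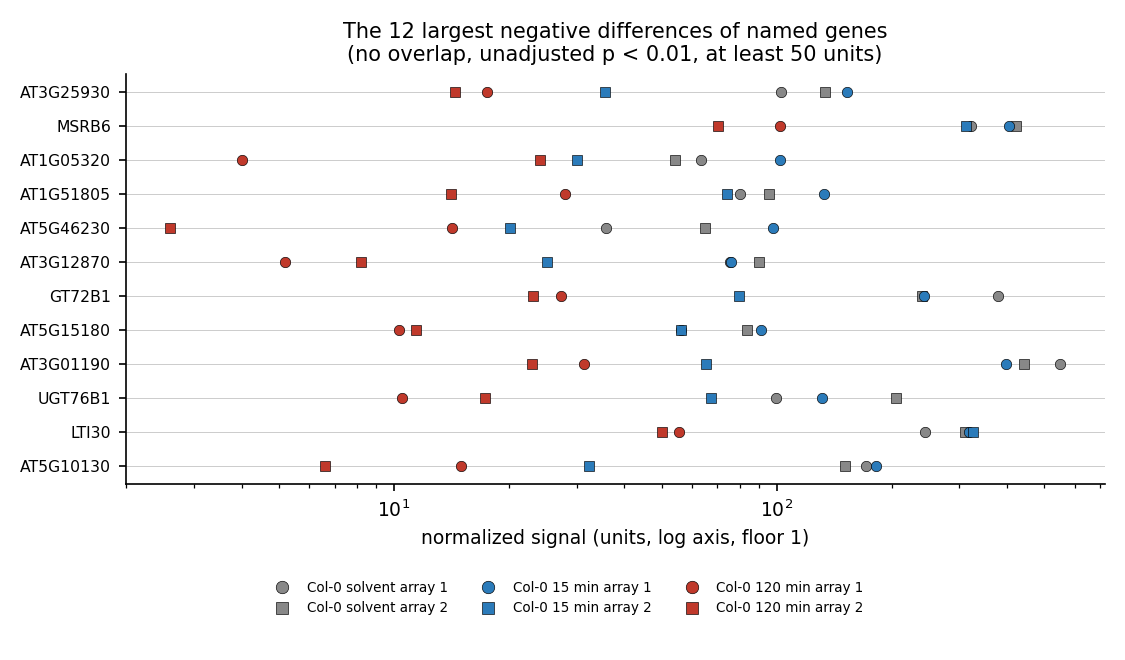
Normalized signal (units, log axis) in the 6 Col-0 arrays for the 12 named genes with the largest negative log2 differences among those with groups that did not overlap, an unadjusted p under 0.01 and at least 50 units. The red 120 min symbols lie left of the other 4 in all 12 rows, and the blue square of 15 min array 2 lies left of its replicate in every row but that of LTI30.

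**Figure D4:**
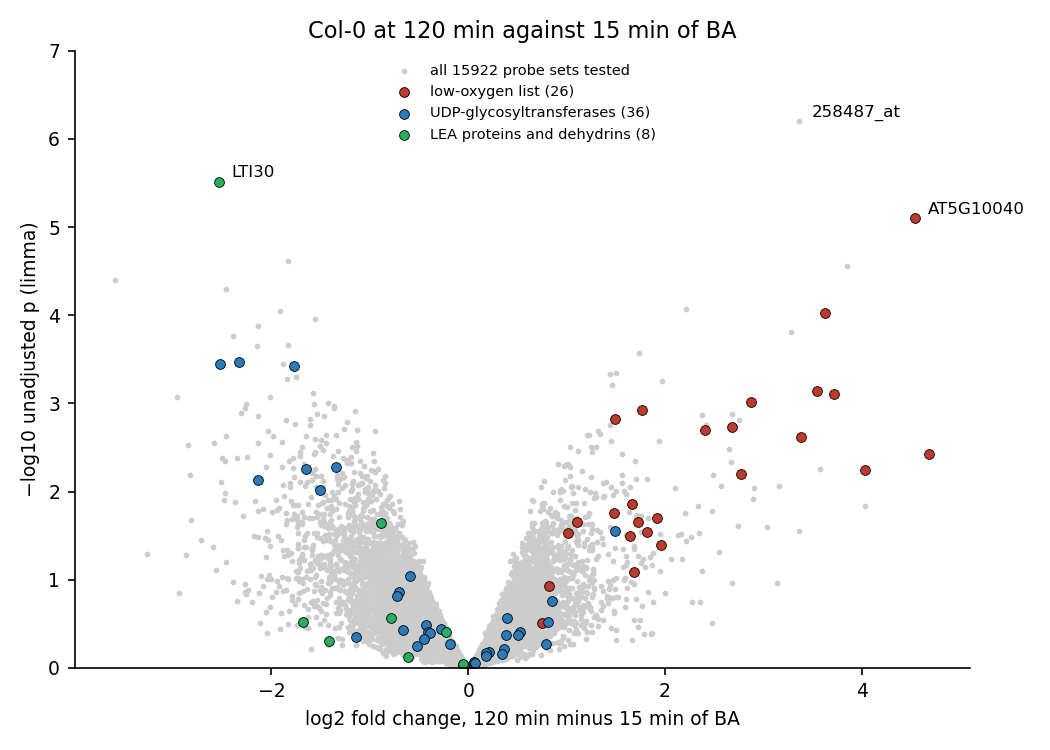
Log2 fold change, 120 min minus 15 min of BA (x axis), against −log10 of the unadjusted limma p (y axis) for the 15922 probe sets tested, with the low-oxygen list (26), UDP-glycosyltransferases (36) and late embryogenesis abundant proteins (8) in colour. The 3 labelled probe sets passed the adjusted threshold, and all low-oxygen members lie right of 0.

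UDP-glycosyltransferases attach sugars to hormones, phenolics and foreign compounds. Of 52 such genes with a probe set 36 were tested, 0 passed the threshold, and at an unadjusted limma p under 0.05 7 were lower and 1 was higher, beside 3.42% and 1.92% of all probe sets. Both 120 min arrays were below both 15 min arrays in 11 and above in 3, beside 23.7% and 17.8% of all probe sets. The median difference was −0.23 (range −2.53 to 1.49). GT72B1, which glycosylates monolignols and chlorinated phenols, had 377.8 and 239.7 units with solvent, 241.9 and 79.9 units at 15 min, and 27.3 and 23.1 units at 120 min (−2.33, SE 0.466, adjusted p = 0.283), or −3.10 without 15 min array 2. UGT76B1, which glucosylates salicylic acid and isoleucic acid, had 99.7 and 204.6 units with solvent, 131.3 and 67.5 units at 15 min, and 10.5 and 17.3 units at 120 min (−2.53, SE 0.510, adjusted p = 0.283), or −2.99 without it. Both genes were lowest in the 120 min arrays, with 15 min array 2 below its replicate.

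UGT74D1, which glucosylates auxins, had 344.5 and 242.5 units with solvent, 239.6 and 256.6 units at 15 min, and 83.1 and 59.2 units at 120 min (−1.77, SE 0.360). Here both 15 min arrays read alike and at the solvent level. UGT72B3 (35.4 and 35.6 units at 15 min, 9.3 and 8.7 units at 120 min) and UGT76E11 (21.1 and 21.6 units, then 8.7 and 2.9 units) were also even at 15 min, with differences of −1.65 (SE 0.486) and −1.50 (SE 0.487). UGT71C1 and UGT73B5 had −1.34 and −2.14, or −1.96 and −3.07 without 15 min array 2 and −0.726 and −1.21 without array 1. With a pseudocount of 16 units UGT73B5 had −0.997. The member higher at 120 min was IAGLU, named as an indole-3-acetate glucosyltransferase, with 74.1 and 97.9 units with solvent, 68.8 and 265.3 units at 15 min, and 384.1 and 394.0 units at 120 min (1.49, SE 0.596). Its 15 min array 2 lay between array 1 and the 120 min arrays.

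Late embryogenesis abundant proteins, the class of LTI30, protect cells from drying. Of 8 tested members 1 fell past the threshold (LTI30), which 0.0188% of all probe sets passed, and 2 had a lower signal at an unadjusted p under 0.05, beside 3.42% of all. The second was COR47, another dehydrin, with 988.3 and 1211.0 units with solvent, 1196.9 and 1042.2 units at 15 min, and 647.5 and 561.4 units at 120 min (−0.89, SE 0.339, limma unadjusted p = 0.0230). Its groups did not overlap and both 15 min arrays lay within the range of solvent. The median of the 8 was −0.84. Their median log2 signal was 7.556 and 5.551 at 15 min, and 5.525 and 5.169 at 120 min. On this list 15 min array 2 thus already stood near the 120 min arrays. The error was wide for LEA4-5, with 135.5 and 43.7 units at 15 min and 25.4 and 18.9 units at 120 min, whose difference of −1.67 (SE 1.56) was −2.45 without 15 min array 2 and −0.89 without array 1. COR15B, a cold-regulated chloroplast protein, had −0.06 (SE 0.495) with overlapping groups, and its sign turned with median-centring and quantile normalization.

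Cell wall genes did not share a direction. Of 15 tested expansins 2 were higher at an unadjusted p under 0.05, EXPA16 and EXPA4, and 0 were lower, beside 1.92% and 3.42% of all probe sets, and the median was −0.13, which median-centring moved to 0.02. EXPA4 had 186.8 and 145.6 units with solvent, 156.4 and 64.4 units at 15 min, and 313.9 and 294.1 units at 120 min (1.56, SE 0.491). The root hair expansins EXPA7 and EXPA18 had differences of −1.05 (SE 0.554) and −0.78 (SE 0.558). In both, 15 min array 2 read at the level of the 120 min arrays, with EXPA7 at 40.4 units against 39.8 and 32.6 units. Among 8 xyloglucan endotransglucosylase/hydrolases, which cut and rejoin wall polymers, EXGT-A3 was lower, with 877.5 and 940.9 units at 15 min against 523.4 and 513.6 units at 120 min (−0.81, SE 0.285). Its solvent arrays, at 706.1 and 704.2 units, lay between the 2 times. TBL41, of a family that acetylates wall polysaccharides, had 51.6 and 13.9 units at 15 min and 13.9 and 4.8 units at 120 min (−1.37, SE 0.540). Its groups were not separated, and the difference was −0.539 without 15 min array 1 and −2.21 without array 2. The median of the 20 tested members of the family was −0.23.

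Enzymes that conjugate auxin to amino acids were measured by 4 probe sets. GH3.3 had 76.0 and 51.1 units with solvent, 51.5 and 45 units at 15 min, and 122.2 and 144.3 units at 120 min (1.40, SE 0.437, limma unadjusted p = 0.00776). WES1, another auxin-conjugating member, had 241.0 and 248.3 units with solvent, 223.0 and 505.3 units at 15 min, and 778.3 and 852.3 units at 120 min (1.27, SE 0.671). In both genes the 120 min arrays were the highest of the 6, while GH3.17 and GH3.9 had −0.17 and 0.03. Of 3 measured Aux/IAA repressors 0 had an unadjusted limma p under 0.05, beside 1.92% of all probe sets higher and 3.42% lower.

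Detoxifying enzymes had negative medians. Of 11 tested cytochrome P450 enzymes, most of them of the CYP71B group, 2 were lower at an unadjusted p under 0.05 and 0 higher (3.42% and 1.92% of all probe sets), both 120 min arrays were below both 15 min arrays in 7 (23.7% of all), and the median was −0.50. CYP71B28 had 37.4 and 43.4 units at 15 min against 20.0 and 18.4 units at 120 min (−0.95, SE 0.310), and CYP71B34 had 50 and 67.3 units against 25.8 and 29.0 units (−0.999, SE 0.373). Of 12 glutathione S-transferases, which couple glutathione to reactive compounds, 1 was lower at that p (GSTU27, −0.97, SE 0.390), 6 lay below without overlap, beside the same 3.42% and 23.7%, and the median was −0.60. The median log2 signal of the 12 was 6.103 and 5.283 at 15 min, and 5.07 and 5.088 at 120 min, so 15 min array 2 stood near the 120 min arrays. For GSTU27 array 2 at 15 min, with 112.8 units, lay between its replicate at 201.2 units and the 120 min arrays at 76.7 and 73.9 units.

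Single members of other families also differed. GTR1, a glucosinolate transporter, had 184.0 and 142.7 units with solvent, 196.7 and 79.5 units at 15 min, and 36.7 and 49.9 units at 120 min (−1.48, SE 0.472). SWEET17, a fructose transporter of the vacuole, had 121.6 and 120.5 units with solvent, 199.7 and 166.0 units at 15 min, and 81.2 and 49.4 units at 120 min (−1.47, SE 0.504), so that the 15 min arrays were above solvent and the 120 min arrays below. The remaining 11 tested SWEET transporters ranged from −0.33 to 0.82. BGLU46, a beta-glucosidase of monolignol glucosides, had −1.78 (SE 0.502), or −2.46 without 15 min array 2 and −1.1 without array 1. The calmodulin-like CML42 had 265.2 and 62.6 units at 15 min and a log2 difference of −1.53 (SE 0.565). That difference was −2.54 without 15 min array 2 and −0.52 without array 1. ALDH6B2, a methylmalonate semialdehyde dehydrogenase of valine breakdown, was higher, with 438.1 and 455.7 units with solvent, 482.6 and 815.6 units at 15 min, and 1369.7 and 1360.3 units at 120 min (1.12, SE 0.469). It was the single member of 8 aldehyde dehydrogenases with an unadjusted limma p under 0.05, beside 1.92% of all probe sets higher and 3.42% lower.

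**Figure D5:**
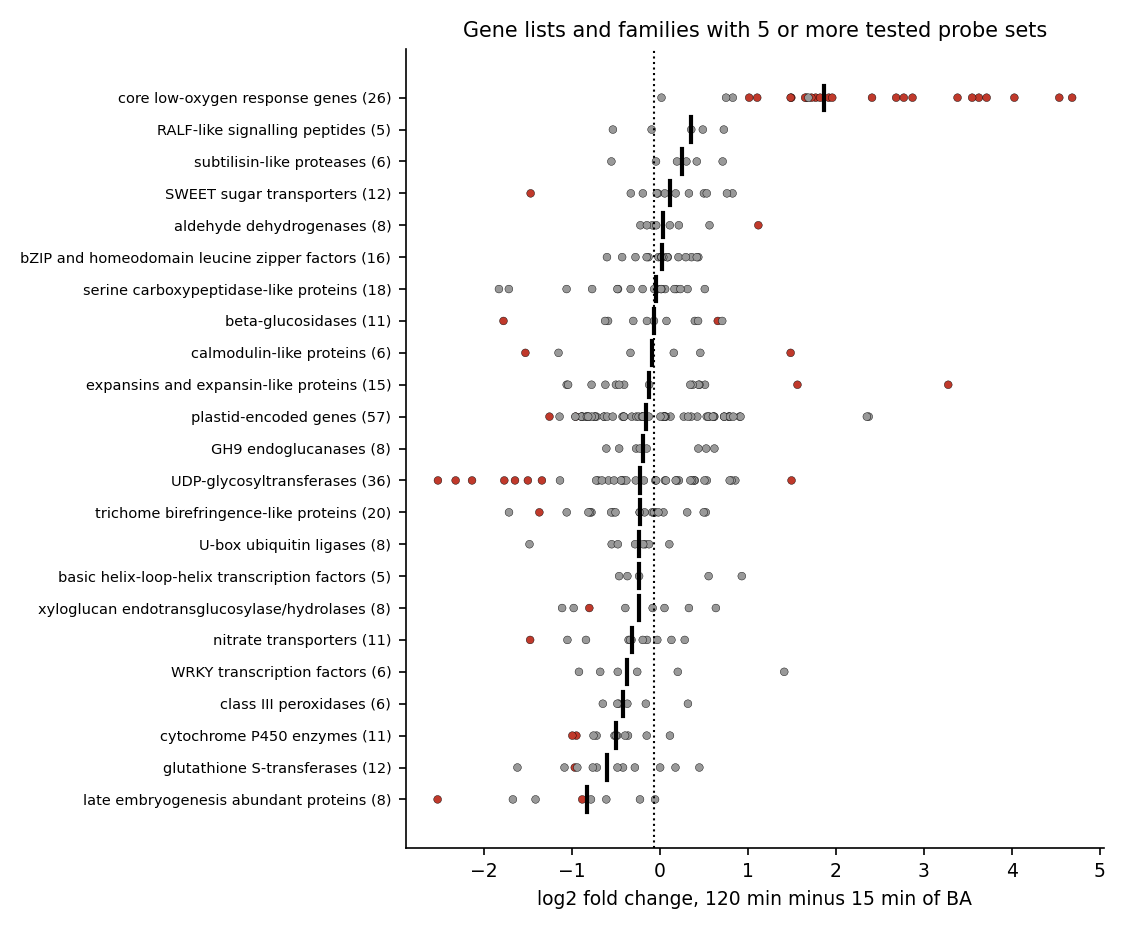
Log2 fold change, 120 min minus 15 min of BA, of each tested member of the gene lists and families with 5 or more tested probe sets (number in brackets), with red points for an unadjusted limma p under 0.05, black bars at the medians and a dotted line at the median of all probe sets, −0.065. The low-oxygen list has the highest median, 1.87, and the late embryogenesis abundant proteins the lowest, −0.84.

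Of the cytokinin pathway, 2 of 10 type-A regulators had a probe set with 1 gene, and there was no such probe set for any receptor, phosphotransfer protein, cytokinin response factor or cytokinin oxidase. ARR15 had 11.3 and 2.7 units with solvent, 119.8 and 57.8 units at 15 min, and 80.4 and 61.7 units at 120 min. Both BA groups lay above solvent and overlapped each other, with a log2 difference between the times of −0.23 (SE 0.603), which was 0.27 without 15 min array 1. ARR16 had 19.6 and 16.2 units with solvent, 68.3 and 31.1 units at 15 min, and 67.0 and 84.1 units at 120 min (0.66, SE 0.639). The 2 regulators thus stood above solvent at both times, and a difference between the times was not detectable with these errors. The N-glucosyltransferases UGT76C1 and UGT76C2, which inactivate cytokinins, had 0.39 (SE 0.341) and 0.86 (SE 0.589). AZG1, a purine permease that also carries cytokinins, had 46.5 and 58.2 units with solvent, 144.5 and 81.6 units at 15 min, and 44.1 and 47.1 units at 120 min. It was higher at 15 min than at both other times, and the difference of −1.20 (SE 0.425, limma unadjusted p = 0.0161) had an adjusted p that did not pass.

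Of photosynthesis genes, the 4 measured nuclear photosystem subunits had a median difference of 0.57. PSAE-1, a subunit of photosystem I, had 3263.2 and 3421.3 units with solvent, 2811.2 and 4193.1 units at 15 min, and 4491.1 and 6389.9 units at 120 min (0.64, SE 0.275, limma unadjusted p = 0.0385), with array 2 at 15 min between its replicate and the 120 min arrays. The difference of PSAE-1 was −0.03 and that of PSBY −0.09 after quantile normalization, so their direction depends on the scaling. Of 57 tested plastid-encoded probe sets 0 were higher and 2 lower at an unadjusted limma p under 0.05, rps14 (−1.26) and matK (−0.96), beside 1.92% and 3.42% of all probe sets, and the median was −0.16. The highest positive difference among them was that of psbA, which encodes the D1 protein of photosystem II, with 31.0 and 110.9 units at 15 min and 203.7 and 505.0 units at 120 min (2.37, SE 1.23).

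Markers of root and shoot were both present, as the seedling label implies. Of 12 root markers 4 were tested. Their median log2 signal was 7.30 and 7.60 with solvent, 7.46 and 6.86 at 15 min, and 6.51 and 6.52 at 120 min, and their median difference was −0.32, with EXPA7 and EXPA18, given above, among the 4. Their summed signal, most of it from PYK10, was 3521.0 and 3690.5 units with solvent, 2747.5 and 2530.4 units at 15 min, and 3575.9 and 4078.2 units at 120 min. PYK10 is a beta-glucosidase of root endoplasmic reticulum bodies, and it had 2338.6 and 2228.6 units at 15 min and 3350.9 and 3862.6 units at 120 min (0.66, SE 0.224). Of 12 shoot markers 2 were tested, with summed signals of 3968.0 and 6280.5 units at 15 min and 6331.8 and 8978.1 units at 120 min. Most of the sum came from LHCB4.1, with 3940.7 and 6257.7 units at 15 min and 6267.2 and 8940.2 units at 120 min. Its difference of 0.59 (SE 0.283) was −0.07 after quantile normalization, so its direction depends on the scaling. No tested marker was at 0. FAMA, a guard cell transcription factor, had 27.3 and 22.8 units at 15 min and 64.6 and 37.9 units at 120 min (0.90, SE 0.329). Of the genes used as references in other work, AT4G34270 had −0.21 (SE 0.275), UBC21 had −0.17 (SE 0.288) and AT2G28390 had −0.02 (SE 0.321, which turned sign with median-centring and quantile normalization).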

How the data were processed

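Per the labels' protocols, 5 µg of total RNA a sample was made into biotin-labelled cRNA, with no amount given for Col-0 solvent array 2. A service centre returned normalized values. The authors deposited a linear normalized intensity for each probe set of each array. How they normalized it is not given in the sources used. Values under 1 were set to 1, and log2 was taken after adding 3.39 units (0.1 of the median value, 33.9), which understates changes of dim probe sets. After leaving out 64 controls and probe sets with a mean under the 30th percentile, 15922 were fitted with limma 3.58.1 in R 4.3.3 (all 13 arrays in 5 groups, 8 residual degrees of freedom, intensity trend) and adjusted by Benjamini-Hochberg at 0.05. The model was tested on simulated data. Levels are not compared between probe sets.

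The platform annotation gives 8748 of the tested probe sets 1 gene, 311 several and does not list 6863. Of all probe sets with 1 gene, 13436 of 13513 matched the RefSeq table (TAIR10.1). Named were all probe sets past the threshold, the 12 largest differences each way among non-overlapping groups with an unadjusted p under 0.01 and at least 50 units, and up to 4 members of lowest p per list, with every type-A regulator. Values of further members of the low-oxygen list and of some families were added after they were seen. The comparison, the 62 lists and families (44 with a tested member) and the naming rule were chosen with earlier results of these data known. Alternatives were the normalization, pseudocount, filter, samples, replicate block, array weights, variance model and single arrays left out.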

Additional observations from a re-analysis of the deposited data

Results flagged for a closer look

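The control probe set for 25S ribosomal RNA enters no comparison. Its mean signal was 622.0 ± 104.4 units (SD, n = 2) in the Col-0 120 min arrays, against 32.2 ± 19.9 units (n = 2) with solvent and 54.3 ± 54.0 units (n = 2) at 15 min. What singled it out is a signal outside the main measurement that was above its level in the control arrays. Both 120 min arrays lay above all 4 other Col-0 arrays, the highest of which was 15 min array 2 at 92.5 units. The CKX1 arrays spread from 2.4 to 803.7 units. The part of this difference in the gene results was not tested.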

How the results depend on the processing

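The count of 3 probe sets past the threshold was 2 to 4 under 8 of the other settings. It was 0 in a fit of the 4 arrays alone (1232 at an unadjusted limma p under 0.05), 7 in a fit of the 6 Col-0 arrays, 22 with array weights, 13 without both CKX1 arrays numbered 3, 752 without these and 15 min array 2, and 0 to 5 with 1 of the 4 arrays left out. With the replicate number as a block it was 52 (fixed term, 4 residual degrees of freedom) or 51 (random term, correlation 0.461), with all 3 included, and 46 with the CKX1 numbers alone as a fixed replicate block (5 residual degrees of freedom). The labels do not say that the numbers mark shared batches. In Col-0 the deviations of same-numbered arrays correlated at 0.018 between 15 and 120 min, −0.017 between solvent and 120 min and 0.11 between solvent and 15 min. The 2 numbers of the compared groups are therefore taken as numbers only, whereas the CKX1 arrays deviated together. The 22 low-oxygen members at an unadjusted p under 0.05 were 13 to 19 with 1 array left out, and the median of the list was 1.76 to 2.11 in all settings. The 25 leading probe sets kept their direction throughout. With 1 array left out this was fixed in advance, since the compared groups of all 25 did not overlap. The cause of these shifts was not tested.

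Of 89 probe sets refitted in each setting (the leading ones, the low-oxygen list and other list members, mostly those with an unadjusted p under 0.05), 13 turned sign in some setting. With 1 of the 4 arrays left out, and the other sign without 15 min array 1, ARR15 ranged from −0.738 to 0.271, UGT76C1 from −0.052 to 0.841, WRKY53 from −2.26 to 0.416, EXPA18 from −1.58 to 0.0237, AT1G62500 from −0.717 to 0.991 and COR15B, at 0.0394 there, from −0.712 to 0.596. AT5G47060, from −0.380 to 0.411, had −0.380 without 15 min array 2, with or without both CKX1 arrays numbered 3, and −0.173 without 120 min array 1. AT2G28390, from −0.100 to 0.0631, had 0.0631 and 0.0247 in the same settings, 0.126 with median-centring and 0.0948 after quantile normalization. COR15B had 0.0868 and 0.0505 under these scalings and 0.596 without 120 min array 2. After quantile normalization LHCB4.1 had −0.0743, PSAE-1 −0.0251 and PSBY −0.0949. GH3.17 had 0.114 without 15 min array 2, with or without both CKX1 arrays numbered 3, and −0.453 to 0.114 with 1 array left out, where GH3.9 had −0.0551 to 0.107. GH3.9 had −0.0551 without the 3 arrays of high 25S signal. Median-centring moved the median of all probe sets from −0.065 to 0.0795.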
